A study of Mus musculus with 60 samples.

Results

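The genes described here are 10 members of the insulin signalling route from the cell surface to the nucleus: the receptors Insr and Igf1r, the adaptors Irs1 and Irs2, the receptor-binding inhibitors Grb10 and Grb14, the regulatory subunit Pik3r1, the kinase Akt2 and the transcription factors Foxo1 and Foxo3. They were taken from 19057 named genes by symbol, with earlier results of these data known. Every probe that the platform's table assigns to one of them was followed, whatever its values. That gave 26 probes, of which 25 passed the filter on dim probes. The probe left out was Foxo3 ILMN_2439078, which lay above the 25th percentile of its array on 1 of 60 arrays.

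The arrays measured mRNA of the striatum of male C57BL/6J mice aged 8 to 10 weeks. Ketamine was given at 20 mg/kg, memantine at 15 mg/kg and PCP (phencyclidine) at 5 mg/kg, each as 1 intraperitoneal injection. Control mice received saline or stayed naive, without injection, and tissue was taken at 1, 2, 4 or 8 h. All 3 drugs block the NMDA type of glutamate receptor. The 5 treatments and 4 times made 20 groups of 3 arrays, and each array held RNA pooled from 2 mice, so that the spread of single animals is not visible. A level is a normalized log2 signal, and a change is a difference between log2 levels, given with its standard error (SE). A drug change is measured from time-matched saline, and an averaged change is the mean over the 4 times (12 arrays against 12). Adjusted p are Benjamini-Hochberg values from limma over all 44236 probes of a comparison, and a probe is called when its adjusted p is under 0.05.

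Median raw signals of the arrays ran from 166.9 to 646.1 intensity units. Precision depends on how many arrays a group has and on how much a probe varies between them. Of the arrays, saline 4 h replicate 3, saline 4 h replicate 1 and saline 1 h replicate 3 had the lowest mean correlation with the other 59 (0.934, 0.940 and 0.943), and the main values that rest on saline at 4 h are also given without these 3 arrays. That leaves 1 saline array at 4 h, whose variance is then taken to equal that of the remaining groups. The arrays lay 6 to a slide on 10 BeadChips, numbered here from 1 to 10. Memantine and naive arrays never shared a BeadChip with a saline array of the same time, while ketamine and PCP each did so 4 times. Striatal projection neuron markers were bright, such as Ppp1r1b (percentile 99.5 of all probes) and Drd1 (percentile 97.5), with Adcy5 (percentile 17.6) as an exception among the 14 measured.

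Insulin and IGF1 bind receptor tyrosine kinases, which phosphorylate the Irs adaptors. These recruit phosphoinositide 3-kinase, whose lipid product activates Akt, and Akt phosphorylates FoxO factors and keeps them out of the nucleus. In the brain the route takes part in neuronal survival, synaptic plasticity and the control of energy balance. In mouse liver FoxO factors raise Irs2 transcription, so that the route feeds back on its own adaptor.

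Over all members, 1 of 25 probes was called in the averaged comparison of memantine with saline, where 0.0543% of all probes were called. It was a Grb14 probe and it was lower, so 1 of 25 was called lower (background 0.00904%) and 0 of 25 higher (background 0.0452%). In ketamine against saline 0 of 25 were called (background 0.0181%), and in PCP against saline 0 of 25 (background 0%). At an unadjusted p under 0.05 there were 4 of 25 member probes with ketamine (16%, beside 9.46% of all probes), 5 with memantine (20%, beside 9.40%) and 4 with PCP (16%, beside 6.98%). With 1 probe a gene (the brightest), 5 of 10 genes lay above 0 with ketamine, 5 with memantine and 6 with PCP. The median changes of the 10 genes were 0.0048, -0.016 and 0.010 on the log2 scale, beside 0.0055, 0.0036 and 0.0079 over all 18936 genes. The 3 drugs share the saline arrays, so their columns are not independent of each other.

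**Figure D1:**
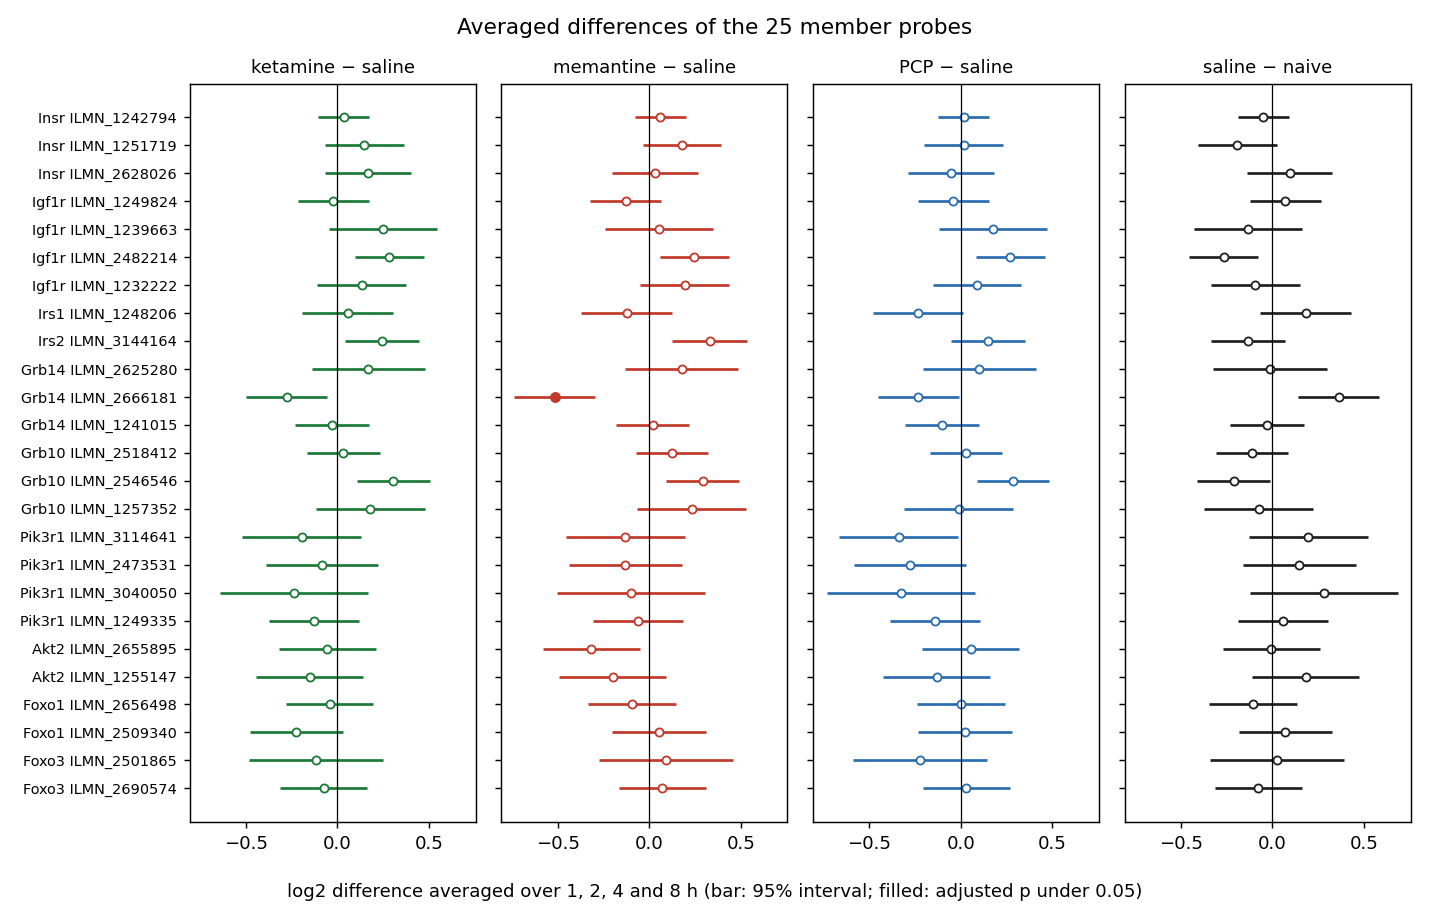
Log2 differences averaged over 1, 2, 4 and 8 h (horizontal axis) for each of the 25 member probes (rows), from left to right for ketamine, memantine and PCP against saline and for saline against naive. Points are the estimates and bars their 95% intervals, and the single filled point is the Grb14 probe called with memantine.

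The receptors showed no called change. Insr, the insulin receptor, was measured by 3 probes, and its brightest, ILMN_1242794, had the smallest SD over the 60 arrays of the 25 probes (0.15). Its levels ran from 10.09 through a median of 10.34 to 10.54 on the 12 saline arrays and from 10.16 through 10.41 to 10.61 with memantine, with wide overlap. The averaged changes were 0.03 (95% interval -0.11 to 0.17) with ketamine, 0.06 (-0.08 to 0.20) with memantine and 0.02 (-0.12 to 0.16) with PCP. No interval of this probe reached beyond 0.20 on either side of 0. The dimmer Insr probes ILMN_1251719 and ILMN_2628026 (percentiles 25.8 and 21.9) varied more, with SDs of 0.26 and 0.28.

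Igf1r, the receptor of insulin-like growth factor 1, was measured by 4 probes that did not move alike. The brightest, ILMN_1249824, changed by -0.02 (SE 0.10), -0.13 (SE 0.10) and -0.04 (SE 0.10) with ketamine, memantine and PCP. The dimmer ILMN_2482214 was at 6.66, 7.18 and 7.50 (lowest, median and highest) on saline arrays, at 7.21, 7.44 and 7.62 with memantine and at 7.22, 7.49 and 7.69 on naive arrays. Memantine and naive arrays covered nearly the same range, and saline reached lower than either. Its averaged changes were 0.28 (SE 0.09, adjusted p = 0.326), 0.25 (SE 0.09, adjusted p = 0.407) and 0.27 (SE 0.09, adjusted p = 0.565), none of them called. Against naive arrays the memantine change of this probe was -0.02 (adjusted p = 1.00), and saline minus naive was -0.26 (SE 0.09, adjusted p = 0.392).

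Irs1 and Irs2 are the adaptors that carry the receptor signal to phosphoinositide 3-kinase, and each had 1 probe. The dimmer Irs1 probe, ILMN_1248206, ran from 6.58 through 7.40 to 7.97 on saline arrays and from 6.81 through 7.12 to 7.45 with PCP. PCP arrays were below the saline mean of their time on 11 of 12 arrays, and the averaged change of -0.23 (SE 0.12, adjusted p = 0.749) was not called. With ketamine it was 0.06 (SE 0.12) and with memantine -0.12 (SE 0.12).

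The promoters of the Irs adaptors are shown because, of the member windows, only they held a match to the motifs searched. Of the 10 members, 9 had an entry in the RefSeq promoter table (GRCm38.p6), with 14 windows in all, and the 250 bases before each annotated start were searched on both strands for CACGTG (an E-box), TGTTTTG (a form of the insulin response element) and TGTTTAC (a FoxO core motif). Capitals mark every match, and each sequence runs 5′ to 3′ on the gene's own strand.
Irs1 (chr1:82291440-82291689, minus strand): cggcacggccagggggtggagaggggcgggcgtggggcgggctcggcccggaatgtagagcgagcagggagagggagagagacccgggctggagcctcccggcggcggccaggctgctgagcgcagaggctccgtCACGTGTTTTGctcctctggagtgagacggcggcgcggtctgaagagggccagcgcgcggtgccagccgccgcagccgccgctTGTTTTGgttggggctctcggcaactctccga
Irs2 (chr8:11008930-11009179, minus strand): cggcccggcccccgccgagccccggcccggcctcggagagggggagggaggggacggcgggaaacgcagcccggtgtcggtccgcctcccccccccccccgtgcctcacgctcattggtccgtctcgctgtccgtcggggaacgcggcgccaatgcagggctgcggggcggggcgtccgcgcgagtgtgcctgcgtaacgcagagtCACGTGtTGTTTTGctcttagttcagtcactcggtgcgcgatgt

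In the Irs2 window CACGTG began 44 bases before the start and TGTTTTG 37 bases before it, with 1 base between them. In the Irs1 window CACGTG began at 115 and TGTTTTG at 111 bases before the start, so that the matches share 2 bases, and a further TGTTTTG began at 32. CACGTG was present in 6.02% of the 32851 windows of the same length in the table, TGTTTTG in 5.56% and TGTTTAC in 3.17%. Both CACGTG and TGTTTTG were in 0.295% of windows, and the matches overlapped by at most 2 bases or lay at most 1 base apart in 0.0213%. These limits equal the spacings of the Irs1 and Irs2 matches, which are counted in that share, so the share is no test of them. The other 12 member windows, Grb14 included, held none of the 3 motifs. A match is a run of letters and no measured binding site, and no binding was assayed here.

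Irs2 probe ILMN_3144164 was bright, at percentile 90.1 of all probes. Its levels on saline arrays were 10.41, 10.50 and 10.09 at 1 h, 10.02, 10.58 and 10.69 at 2 h, 9.13, 10.08 and 10.07 at 4 h, and 10.09, 10.38 and 9.80 at 8 h. With memantine they were 10.44, 10.57 and 10.32 at 1 h, 10.82, 10.54 and 10.99 at 2 h, 10.64, 10.60 and 10.17 at 4 h, and 10.34, 10.22 and 10.15 at 8 h. The lowest of all 60 arrays was saline 4 h replicate 1, and the highest was memantine 2 h replicate 3. Saline 4 h replicate 1 also had the highest scores of the 60 arrays for astrocyte markers (0.37) and oligodendrocyte markers (0.30), a score being the mean log2 level of the list less that of the naive arrays. Their part in its Irs2 level was not tested.

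At 4 h the memantine and saline arrays of Irs2 did not overlap, and the difference was 0.72 (SE 0.20, adjusted p = 0.0697), a 1.64-fold ratio that was not called. The share of all probes whose memantine and saline arrays lay apart at 4 h is not given here, so the separation is only a description. In that comparison 0 of 25 member probes and 0.714% of all probes were called, and 4 member probes (16%) had an unadjusted p under 0.05, close to the 15.2% of all probes. Without saline 4 h replicate 1 the difference was 0.40, without the 3 saline arrays of lowest correlation it was also 0.40 (adjusted p = 0.546), and without saline 4 h replicate 2 it was 0.88 (adjusted p = 0.0223) and was called. Naive arrays at 4 h were at 10.16, 10.40 and 10.47, and saline minus naive at that time was -0.58 (SE 0.20, adjusted p = 0.201). That difference ran from -0.74 to -0.27 when single arrays were left out, was -0.26 (adjusted p = 0.836) without the 3 saline arrays and -0.88 (adjusted p = 0.0997) with BeadChip as a block, and was called in none of these.

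Averaged over the times, Irs2 was at 0.24 (SE 0.10, adjusted p = 0.443) with ketamine, 0.33 (SE 0.10, adjusted p = 0.305) with memantine and 0.15 (SE 0.10, adjusted p = 0.818) with PCP, none of them called. Memantine arrays were above the saline mean of their time on 11 of 12 arrays. Of the 5 treatments saline had the lowest mean level (10.15), followed by naive (10.29), PCP (10.30), ketamine (10.40) and memantine (10.48). The SD over the 12 arrays of a treatment was 0.20 to 0.42, larger than the step between any 2 neighbours in that order.

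**Figure D2:**
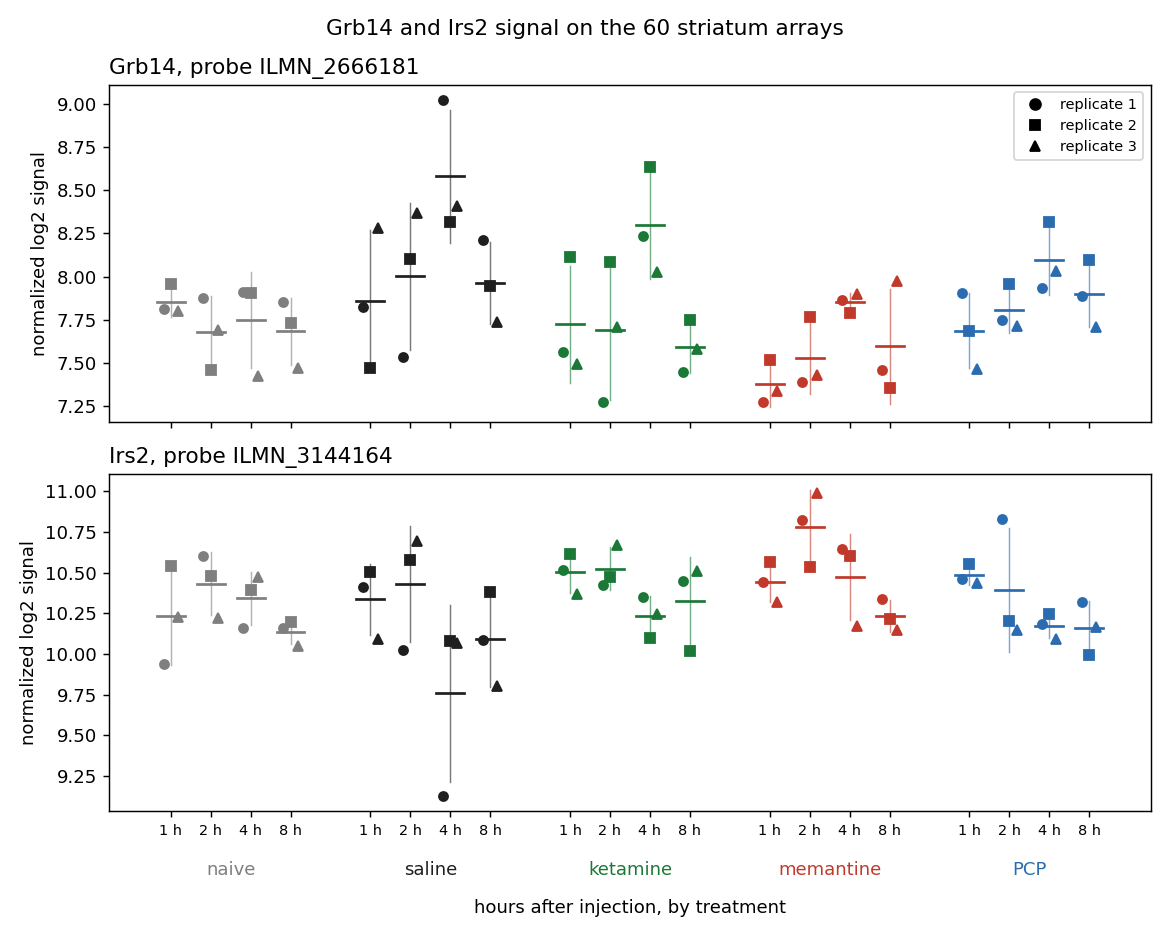
Normalized log2 signal (vertical axes) of Grb14 probe ILMN_2666181 and Irs2 probe ILMN_3144164 on each of the 60 arrays, by treatment and hours after injection (naive arrays by the matched time). Symbols are the replicates, horizontal bars the means and vertical lines 1 SD, and saline 4 h replicate 1 is the highest array for Grb14 (9.02) and the lowest for Irs2 (9.13).

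Grb14 and Grb10 bind the active insulin receptor and inhibit its kinase. Grb14 had 3 probes, and they did not give the same result. Probe ILMN_2666181, at percentile 67.8 of all probes, was the only member probe called in the averaged comparisons. Its saline levels were 7.83, 7.47 and 8.28 at 1 h, 7.53, 8.10 and 8.37 at 2 h, 9.02, 8.31 and 8.41 at 4 h, and 8.21, 7.95 and 7.74 at 8 h. Its memantine levels were 7.27, 7.52 and 7.33 at 1 h, 7.39, 7.77 and 7.43 at 2 h, 7.86, 7.79 and 7.90 at 4 h, and 7.46, 7.35 and 7.98 at 8 h. The groups overlapped at 1, 2 and 8 h and lay apart at 4 h, where the lowest saline array (8.31) was above the highest memantine array (7.90). As for Irs2, the share of all probes that lay apart at 4 h is not given.

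The averaged memantine change was -0.51 (SE 0.11, 95% interval -0.74 to -0.29, adjusted p = 0.0458), a ratio of 0.700, and 11 of 12 memantine arrays were below the saline mean of their time. By time the change was -0.49 (SE 0.22) at 1 h, -0.47 (SE 0.22) at 2 h, -0.73 (SE 0.22, adjusted p = 0.0870) at 4 h and -0.37 (SE 0.22) at 8 h, none of them called alone. Leaving out single arrays, the change at 4 h ran from -0.86 (adjusted p = 0.0421, without saline 4 h replicate 2) to -0.51 (adjusted p = 0.219, without saline 4 h replicate 1), and it was called in the former case alone. Without the 3 saline arrays of lowest correlation it was -0.46 (adjusted p = 0.531). The change did not differ detectably over the times (moderated F-test of memantine by time, adjusted p = 0.965). In tissue RNA, fewer cells of a type and less RNA per cell cannot be told apart.

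The call depended on the choice of control. Naive arrays of this probe were at 7.81, 7.96 and 7.80 at 1 h, 7.88, 7.46 and 7.69 at 2 h, 7.91, 7.90 and 7.43 at 4 h, and 7.85, 7.73 and 7.47 at 8 h. They lay closer to the memantine than to the saline arrays at 2, 4 and 8 h. Saline minus naive was 0.36 (SE 0.11, adjusted p = 0.336) on average and 0.83 (SE 0.22, adjusted p = 0.0804) at 4 h, neither of them called. In those comparisons 0 of 25 member probes were called, with a background of 0.00226% and 0.244% of all probes, and 3 (12%) and 6 (24%) member probes had an unadjusted p under 0.05, beside 8.81% and 11.8% of all probes. The 4 h difference was 0.57 (adjusted p = 0.612) without the 3 saline arrays of lowest correlation, and without saline 4 h replicate 2 it was called (0.97, adjusted p = 0.0229). Against naive arrays the averaged memantine change was -0.15 (adjusted p = 1.00), and at 4 h it was 0.10 (adjusted p = 0.990). Without the 4 h arrays the averaged memantine change from saline was -0.44 (adjusted p = 0.631). It was -0.40 without the 3 saline arrays of lowest correlation.

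With ketamine Grb14 ILMN_2666181 averaged -0.28 (SE 0.11, adjusted p = 0.409) and with PCP -0.23 (SE 0.11, adjusted p = 0.693). Against naive arrays both changed sign, to 0.08 and 0.13. Of the 4 times, 4 h had the highest mean with ketamine (8.23, 8.63 and 8.02) and with PCP (7.93, 8.32 and 8.03), as it did with saline and memantine. Within BeadChips, the ketamine array was below the saline array of the same time by 0.72 at 1 h, 1.09 at 2 h, 0.17 at 4 h and 0.29 at 8 h. The PCP array stood at -0.36, 0.18, -0.99 and -0.50 from it at the same times. No such pair exists for memantine.

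The doses of the drugs differ, so the averaged differences between drugs are given with that limit. PCP minus memantine was 0.28 (95% interval 0.06 to 0.50, adjusted p = 1.00) for this Grb14 probe, with PCP arrays above the memantine mean of their time on 12 of 12 arrays. Ketamine minus memantine was 0.24 (95% interval 0.02 to 0.46, adjusted p = 1.00), and ketamine minus PCP was -0.05 (95% interval -0.27 to 0.18, adjusted p = 1.00). Over 150 such tests of the members (3 pairs of drugs and 3 drug by time interactions for 25 probes) 0 were called, against backgrounds of 0% for each pair of drugs, for ketamine by time and for PCP by time and of 0.00226% for memantine by time. The smallest adjusted p was 0.501, and 7 of the 150 tests had an unadjusted p under 0.05. Of all probes, 3.24% to 3.84% did so for the pairs of drugs and 5.71% to 7.97% for drug by time. A call with memantine alone is therefore not shown to differ from the other drugs.

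The brightest Grb14 probe, ILMN_2625280, was at percentile 89.5, and its averaged changes were 0.17 (SE 0.16) with ketamine, 0.18 (SE 0.16) with memantine and 0.10 (SE 0.16) with PCP, against the direction of ILMN_2666181. The third, ILMN_1241015, changed by -0.03, 0.02 and -0.10. Over the 60 arrays the pair of brighter Grb14 probes had a Pearson r of 0.35 (permutation p = 0.00588, adjusted p = 0.0235 over 8 pairs) and a Spearman rho of 0.31 (permutation p = 0.0175, adjusted p = 0.0698). Without the 2 arrays farthest from the median of ILMN_2625280 r was 0.22, and within single BeadChips it ran from -0.42 to 0.82. With the mean of each BeadChip removed r was 0.24. The permutations shuffled all 60 arrays without regard to BeadChip, so their p cannot separate agreement of the probes from slides they share.

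The bright Grb14 probe differed between slides. A moderated F-test between BeadChips, beside the 20 groups, called 2 of 25 member probes, a share close to the 7.91% of all probes that were called. Differences between slides were thus no more frequent among the members than on the whole array. For ILMN_2625280 its adjusted p was 8.12e-07. All 6 arrays of BeadChip 4 lay between 9.62 and 9.96 and all 6 of BeadChip 5 between 10.34 and 10.89, although each slide held naive, saline, ketamine, memantine and PCP arrays. BeadChips 3 and 6 had medians of 9.88 and 9.90, and BeadChip 2 one of 10.63. Probe ILMN_2666181 did not pass the same test (adjusted p = 0.235), and with BeadChip as a block its memantine change was -0.57 (SE 0.10, adjusted p = 0.0128). The block moved its change at 4 h to -0.38 (adjusted p = 0.529). For ILMN_2625280 the blocked memantine change was 0.14 (SE 0.09, adjusted p = 0.573).

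**Figure D3:**
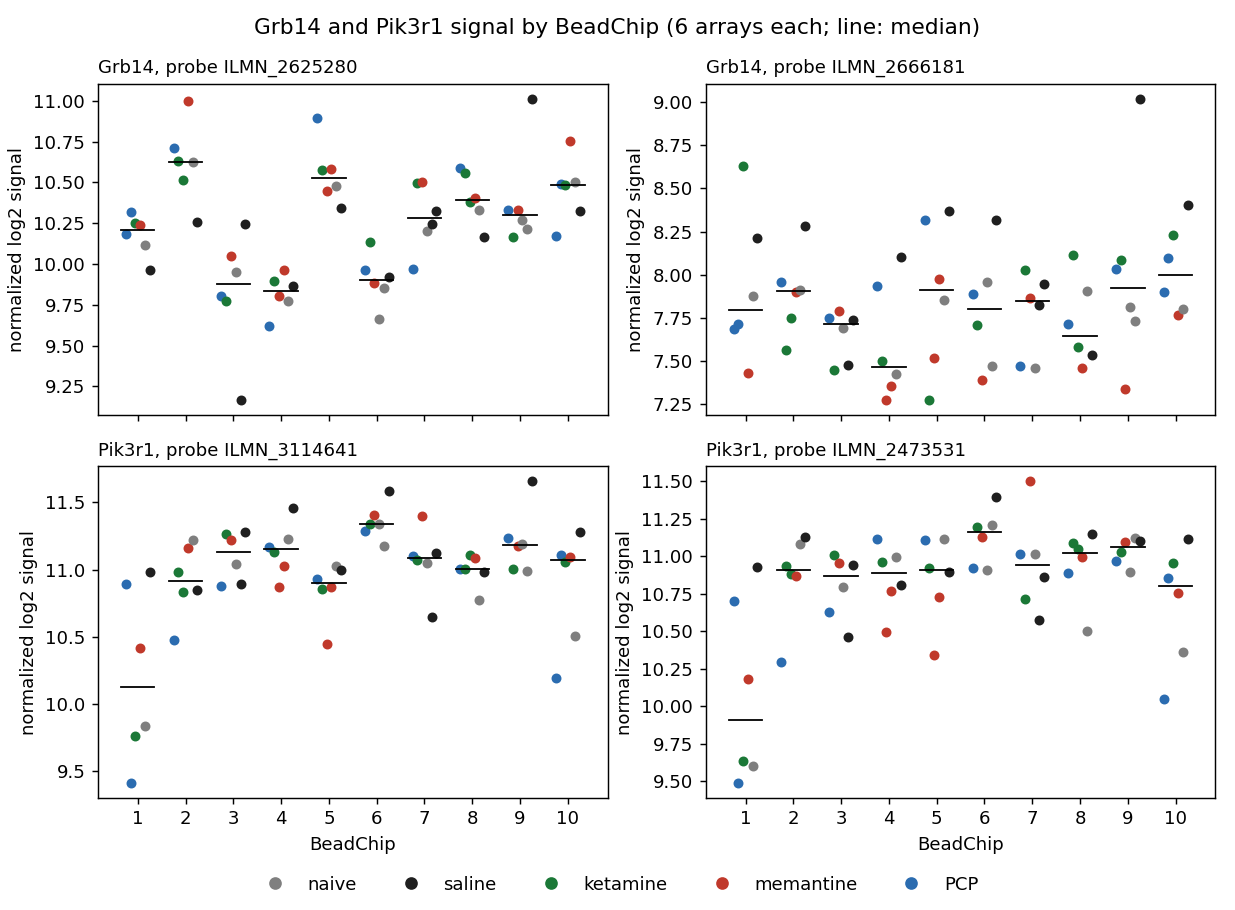
Normalized log2 signal (vertical axes) of a pair of probes each of Grb14 and Pik3r1 by BeadChip (horizontal axes), with 1 point per array coloured by treatment and a line at the median of the 6 arrays. Grb14 ILMN_2625280 has its lowest medians on BeadChips 3, 4 and 6, and both Pik3r1 probes have their 3 lowest arrays on BeadChip 1.

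The other inhibitor, Grb10, was measured by 3 probes. Its brightest, ILMN_2518412, ran from 10.64 through 11.22 to 11.48 on saline arrays and from 10.91 through 11.27 to 11.57 with memantine, and its averaged changes were 0.03, 0.13 and 0.03 (SE 0.10 each) with ketamine, memantine and PCP. Probe ILMN_2546546 was at 7.09, 7.66 and 7.96 (lowest, median and highest) with saline, 7.37, 7.96 and 8.39 with ketamine, 7.52, 7.92 and 8.12 with memantine, 7.39, 7.97 and 8.30 with PCP and 7.52, 7.85 and 8.04 on naive arrays. The ranges overlapped in every pair of treatments. Its changes from saline were 0.31 (SE 0.10, adjusted p = 0.321), 0.29 (SE 0.10, adjusted p = 0.350) and 0.29 (SE 0.10, adjusted p = 0.565), none of them called. Its lowest array, like that of Igf1r ILMN_2482214, was saline 4 h replicate 3.

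Pik3r1 encodes the regulatory subunits of phosphoinositide 3-kinase. Of its 4 probes, ILMN_3114641 and ILMN_2473531 were bright (percentiles 93.5 and 92.7) and moved together over the 60 arrays (Pearson r 0.90, Spearman rho 0.64, permutation p = 1e-05 for both, the smallest that 100000 permutations can give, adjusted p = 8e-05). Without the 2 arrays farthest from the median of ILMN_3114641 r was 0.85. Naive 2 h replicate 1, also low in both probes, was still included there. With the mean of each BeadChip removed r was 0.86, and it was above 0 on all 10 BeadChips (0.12 to 0.98). These permutations too shuffled the arrays without regard to BeadChip. The other 7 pairs of brightest probes had r from -0.02 to 0.35. Among the 8 brightest pairs, that of Pik3r1 had the highest r. Its dimmer probes were in no pair.

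The lowest arrays of ILMN_3114641 were PCP 8 h replicate 3 (9.41), ketamine 4 h replicate 2 (9.76) and naive 2 h replicate 1 (9.84), around an all-array median of 11.04. All 3 were on BeadChip 1, and they were the 3 lowest of ILMN_2473531 as well (9.49, 9.63 and 9.60). The other arrays of that slide were at 10.42 (memantine 2 h replicate 3), 10.89 (PCP 1 h replicate 2) and 10.98 (saline 8 h replicate 1). The F-test between BeadChips gave an adjusted p of 0.00374 for ILMN_3114641 and of 0.0638 for ILMN_2473531.

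At 4 h ketamine levels of ILMN_3114641 were 11.05, 9.76 and 11.07 and saline levels 11.66, 11.59 and 11.28, without overlap. How many of all probes lay apart in the same way is not given here. The change was -0.88 (SE 0.32, adjusted p = 0.324), where 0 of 25 member probes and 0.0678% of all probes were called and 6 member probes (24%, beside 10.4% of all probes) had an unadjusted p under 0.05. With BeadChip as a block it was -0.39 (adjusted p = 0.606), without ketamine 4 h replicate 2 it was -0.44, and without the 3 saline arrays of lowest correlation it was -0.95 (adjusted p = 0.608). At 8 h PCP was at -0.53, at -0.57 (adjusted p = 0.881) with BeadChip as a block and at -1.57 in the pair of arrays that share BeadChip 1. Apart from the low array, the PCP levels (11.29 and 11.11) lay inside the saline range of 10.98 to 11.28 or within 0.01 of it. Averaged changes were -0.19 (SE 0.16), -0.13 (SE 0.16) and -0.34 (SE 0.16, adjusted p = 0.693) with ketamine, memantine and PCP.

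Akt2, the Akt kinase known for its part in insulin-stimulated glucose uptake, had 2 dim probes. Its brighter one, ILMN_2655895, was above the 25th percentile of the array on 40 of 60 arrays, so its values are near the floor. It ran from 6.28 through 6.88 to 7.68 with saline and from 6.10 through 6.66 to 7.17 with memantine, and 10 of 12 memantine arrays were below the saline mean of their time. The averaged change was -0.32 (SE 0.13, adjusted p = 0.444), and PCP minus memantine was 0.37 (SE 0.13, adjusted p = 1.00), neither of them called. The dimmer probe, ILMN_1255147, changed by -0.20 (SE 0.14) with memantine.

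The FoxO factors switch on genes of stress resistance, cell cycle arrest and protein breakdown when Akt activity is low. Foxo1 probe ILMN_2656498 ran from 8.80 through 9.49 to 9.80 with saline, from 8.93 through 9.33 to 10.16 with ketamine, from 8.83 through 9.45 to 9.84 with memantine and from 9.09 through 9.45 to 9.74 with PCP. Its averaged changes were -0.04, -0.09 and 0.00 (SE 0.12 each). The dimmer ILMN_2509340 lay below time-matched saline on 10 of 12 ketamine arrays (change -0.22, SE 0.13, adjusted p = 0.586). Foxo3 probe ILMN_2501865 varied more, with an SD of 0.44 over the 60 arrays and a lowest level of 5.71 in PCP 8 h replicate 2, and changed by -0.12, 0.09 and -0.22 (SE 0.18 each). At 1 and 2 h its dimmer probe ILMN_2690574 stood at -0.57 and 0.53 with memantine, opposite in sign (memantine by time, adjusted p = 0.501).

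**Figure D4:**
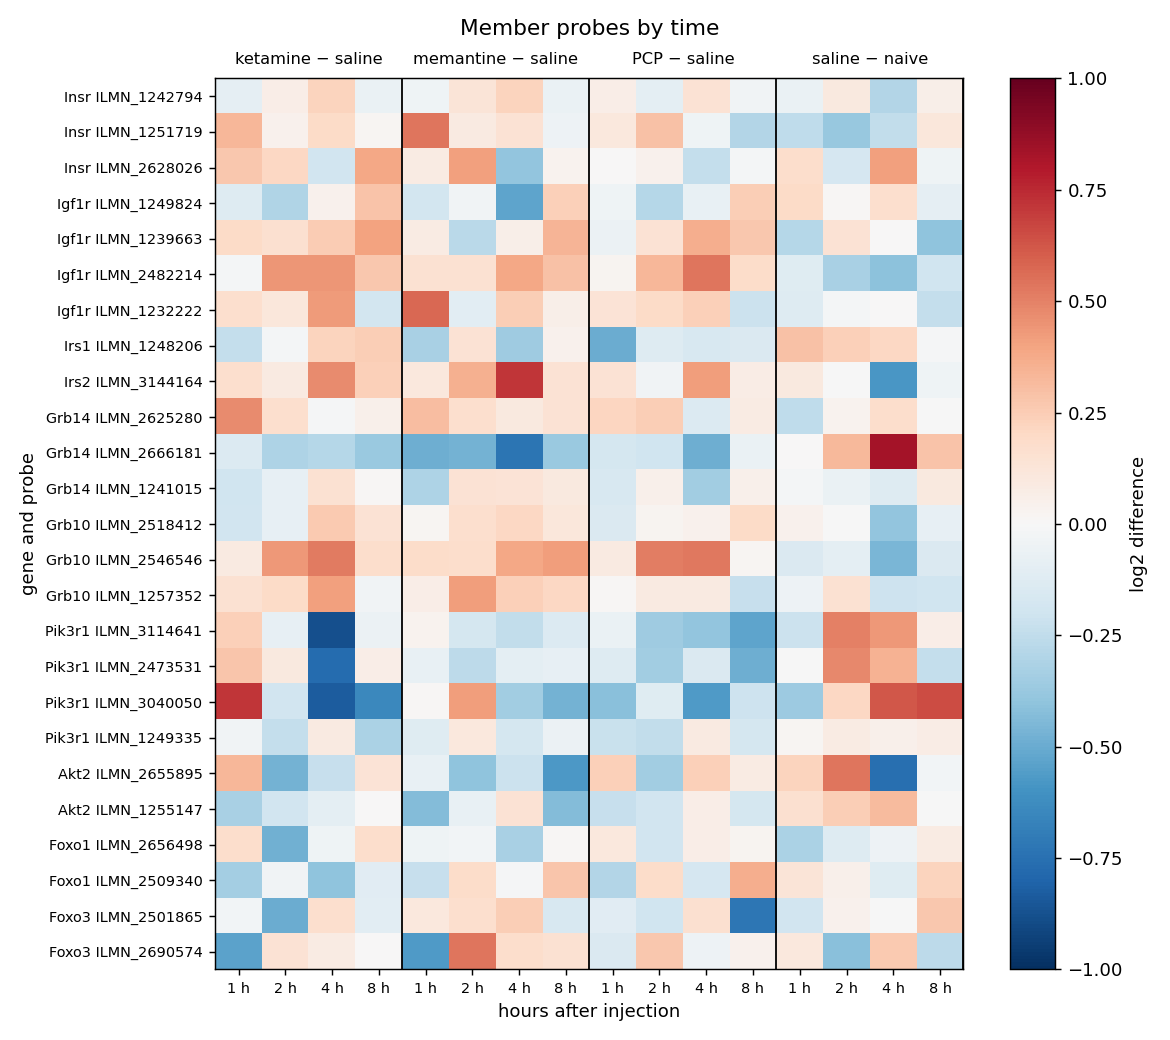
Heat map of log2 differences (colour, from -1 to 1) of the 25 member probes (rows) at 1, 2, 4 and 8 h (columns) for ketamine, memantine and PCP against saline and for saline against naive. The strongest colours of Grb14 ILMN_2666181 and Irs2 lie at 4 h and turn over between memantine against saline (-0.73 and 0.72) and saline against naive (0.83 and -0.58), comparisons that share the saline arrays.

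At single times no member probe was called in the 12 comparisons of a drug with saline or the 4 of saline with naive. The remaining backgrounds were 0.00452% for ketamine and 0.00226% for memantine at 2 h, 0.00226% and 0.0226% for PCP at 1 and 4 h, and 0% elsewhere. The F-test over the 3 drugs together called 0 of 25 member probes (background 0.0158%), and that of time called 0 of 25 in saline (background 0.197%) and 0 of 25 in naive arrays (background 0%). Over all 20 groups 0 of 25 were called (background 0.0904%), and 3 (12%, beside 5.27% of all probes) had an unadjusted p under 0.05: Grb14 ILMN_2666181, Akt2 ILMN_2655895 and Irs2. In saline, Irs2 (adjusted p = 0.283) and Grb14 ILMN_2666181 (adjusted p = 0.286) had the smallest adjusted p of the members. Their 4 h mean was the highest of the 4 times for Grb14 and the lowest for Irs2.

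The 20 group means of Grb14 ILMN_2666181 were most like those of Clybl (r = 0.84), Olfr181 (r = 0.80) and Olfr642 (r = 0.80) among 34357 named probes. Those of Akt2 ILMN_2655895 were most like Zc3h11a (0.80), Fam172a (0.76) and Chrng (0.75). These are the largest of many values over 20 points that share arrays, and they are given as a description. The probes of Olfr181, Olfr642 and Chrng were dim, at percentiles 25.1, 15.6 and 6.82 of all probes.

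Of 73 other insulin and IGF signalling genes, 65 were measured with 145 probes, and none was called in any averaged or single-time comparison of a drug with saline or of saline with naive. With ketamine, memantine and PCP on average, 9.46%, 9.40% and 6.98% of all probes had an unadjusted p under 0.05. The same held for 2, 4 and 3 of the 65 genes, each through its brightest probe. At 4 h it held for 8, 14 and 10 of the 65 genes with ketamine, memantine and PCP, beside 10.4%, 15.2% and 10.8% of all probes. The medians of the averaged changes of the 65 genes were 0.019, 0.0060 and 0.0074 with ketamine, memantine and PCP, beside the all-gene medians given above. The smallest p over the 3 drugs together were those of Irs3, Eif4ebp1 and Dok1. Eif4ebp1, a translation repressor under mTOR control, was at 0.22 (SE 0.09), 0.24 (SE 0.09) and 0.18 (SE 0.09) with ketamine, memantine and PCP (adjusted p = 0.712 over the drugs together). Gsk3b, a kinase that Akt inhibits, was chosen after its values were seen, as the lowest of the 65 with memantine at 4 h (-1.05, SE 0.29, adjusted p = 0.0615). It was -1.16 (adjusted p = 0.192) without the 3 saline arrays of lowest correlation, and without saline 4 h replicate 1 it was called (-1.37, adjusted p = 0.0140). Of 36 genes known as FoxO targets, 33 were measured, and 1 was called in any of those comparisons. It was Bcl6, a transcriptional repressor. With memantine at 4 h, where 0.714% of all probes were called, it was higher by 0.78 (SE 0.19, adjusted p = 0.0333). The call was lost without saline 4 h replicate 1 (0.66, adjusted p = 0.0618) and without the 3 saline arrays (0.75, adjusted p = 0.191). The smallest p over the drugs together were those of Sesn1, Pdk4 and Sesn2, with adjusted p = 0.744 for Sesn1. The median of the 33 with memantine at 4 h was 0.024, beside 0.016 over all genes. In that comparison 6 of the 33 had an unadjusted p under 0.05, beside 15.2% of all probes.

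Markers of other tissue differed between groups. The score of 12 choroid plexus and ependyma markers (their mean log2 level less that of the naive arrays) was -0.33, -0.56 and -0.66 in saline at 4 h and 0.82, 0.88 and 0.01 in naive at 4 h, without overlap. The 4 h mean was -0.51 in saline, near the -0.46 of saline at 1 h, and 0.57 in naive, against -0.04, -0.22 and -0.31 at the other naive times. The highest group mean was that of ketamine at 2 h (1.33). Over the 4 times the score ran from -0.66 to 1.05 with saline, from -0.50 to 0.57 with memantine, from -0.58 to 1.57 with ketamine, from -0.54 to 1.63 with PCP and from -0.39 to 0.88 on naive arrays. At 4 h saline minus naive had a median of -0.98 over these markers, 2 of 12 above 0, while 7 markers of cortical and hippocampal neurons had a median of 0.35, 6 of 7 above 0. The part of either in the Grb14 and Irs2 values at 4 h was not tested.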

How the data were processed

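The authors ran striatal RNA, pooled from 2 mice an array, on 60 Illumina MouseWG-6 v2 arrays (10 BeadChips). The main deposited table holds linear intensity values that the authors exported from BeadStudio without normalization, with no detection p and no control probes, and whether a background was removed at export is not given in the sources used here. A further deposited table, used as an alternative, gives log2 signals after background subtraction and quantile normalization by the authors in beadarray. Hippocampus was not analysed here.

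With limma 3.58.1 (R 4.3.3), intensities went through normexp (offset 50), quantile normalization and log2. Probes above the 25th percentile of an array on 3 or more arrays were kept (44236 of 45281). Of all probes, 34885 had 1 symbol, 18 several and 10378 none. The linear model held 20 group means and used all 60 arrays (lmFit and eBayes, 40 residual and 7.12 prior degrees of freedom), with Benjamini-Hochberg adjustment within each comparison. The fit was tested on simulated data. Groups and replicate numbers came from the labels. These do not say how the mice of different arrays were housed or treated, so p-values measure the spread between arrays. Probe pairs and promoter windows were computed with Python and SciPy.

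Every probe of the 10 genes was followed, and of each list the called genes and the 3 with the smallest p over the 3 drugs together were named. Where a gene needs 1 value, its brightest kept probe stands for it. The members and the gene lists were chosen with earlier results of these data known, as were the promoter motifs and the pairs. The test between BeadChips and the blocked values beside it were added after the data were seen. Alternatives were the authors' log2 values, no background correction (offset 16), scaling to the median, keeping all probes or only those above the percentile on all 60 arrays, a block for BeadChip or replicate number, trended and robust variance, naive or pooled controls, only drug and saline arrays, and leaving out each array. Leaving out the 4 h arrays or the 3 saline arrays of lowest correlation was chosen after seeing the data.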

Additional observations from a re-analysis of the deposited data

How the results depend on the processing

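The number of member probes called with memantine on average went from 1 to 0 with median scaling, with the replicate block, with trended and robust variance, with naive arrays or pooled saline and naive arrays as control, with only the drug and saline arrays, without the 4 h arrays and without the 3 saline arrays of lowest correlation, and it ran from 0 to 1 when single arrays were left out. For Grb14 ILMN_2666181 the change was then -0.39 with median scaling (adjusted p = 0.209), -0.33 with pooled controls (adjusted p = 0.527) and -0.51 with the replicate block (adjusted p = 0.0521), with trended variance (adjusted p = 0.0560) and with only the drug and saline arrays (adjusted p = 0.586). Leaving out any 1 of 40 of the 60 arrays, those of other treatments included, ended the call. Over the omissions of each of the 60 arrays, the change ran from -0.57 to -0.46 and its adjusted p from 0.0195 to 0.161. Against naive arrays the Grb14 changes turned to 0.085 with ketamine, 0.13 with PCP and 0.10 with memantine at 4 h, and that of Igf1r ILMN_2482214 with memantine to -0.017.

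Over the 12 comparisons of a drug with saline at single times the count went from 0 to 1 with the authors' log2 values, 2 without background correction, 4 with median scaling, 2 with the filter on all 60 arrays and 1 with trended variance, and it ran from 0 to 2 without single arrays (2 of them, saline 4 h replicates 1 and 2). Over saline against naive at single times it went from 0 to 1 with the authors' values, without background correction, with median scaling and with the filter on all 60 arrays, and from 0 to 1 without saline 4 h replicate 2. For Irs2 with memantine at 4 h the value was 0.66 (adjusted p = 0.0442) with the authors' log2 values and 1.61 (adjusted p = 0.00184) with median scaling, which moves the median of all probes there to 0.26. Replicate numbers do not pair the arrays (mean correlation of deviations -0.0069 for the same number and 0.0035 for different numbers), and the replicate block ended no other call. Arrays of different groups on the same BeadChip had a mean correlation of 0.122, against -0.0118 on different BeadChips. Of 118 comparisons of counts with an alternative 101 stayed within the limit, and of 188 comparisons of single probes 165 kept their direction and side. The causes were not tested.

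Dim probes of Insr, Igf1r, Pik3r1, Akt2 and Foxo3 lie near the array floor, where a change is compressed. With no detection p, signal over background is unknown.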
